A study of Mus musculus with 6 samples.

Results

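The fibroblast growth factor (FGF) receptor genes Fgfr1, Fgfr2, Fgfr3 and Fgfr4, the co-receptor gene Klb and the ligand genes Fgf1 and Fgf21 were followed in bulk RNA-seq of mouse liver. They were chosen by symbol from the deposited gene count table, and all 7 were found among its 16603 genes. The libraries were 3 from liver labelled wild-type (WT) and 3 from liver labelled Mdr2 knockout, a genotype that lacks the hepatocyte transporter of phosphatidylcholine into bile and is used as a model of bile duct injury. The labels state tissue and genotype only, so strain, age, sex, the allele and any treatment are not known here, and it is not stated that libraries came from separate mice. P-values therefore measure the spread between these libraries, which may be technical.

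FGFs signal through receptor tyrosine kinases. Paracrine members such as FGF1 bind the receptors together with heparan sulphate, whereas the endocrine members FGF15 (FGF19 in humans) and FGF21 bind heparan sulphate weakly and need a Klotho protein. In liver the best known circuit starts in the intestine, where bile acids induce FGF15. It then acts on hepatocytes through FGFR4 and the co-receptor beta-Klotho, the product of Klb, and lowers transcription of Cyp7a1, the rate-limiting enzyme of bile acid synthesis. FGF21 is made by hepatocytes in fasting and under amino acid or protein-folding stress, through the factors PPARalpha and ATF4.

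The libraries held 17100393 to 18124467 counts each, so that 3 counts in 1 library equal 0.149 to 0.192 CPM (counts per 1e6 counts of the library, on library sizes scaled by trimmed mean of M-values, TMM). The gene that encodes Mdr2, Abcb4, stood above the WT-labelled level in the knockout-labelled libraries (482 ± 42.4 CPM against 324 ± 48.1 CPM, SD, n = 3 each). The count covers the whole gene, and since it goes against the label, groups are named here by their labels. The columns of the table carry letters, and the letter read as WT was assigned by elimination. Summed CPM of 15 hepatocyte markers ran from 148600 to 155300 in the labelled WT and from 94700 to 99620 in the labelled knockout libraries. The other marker lists also differed. Summed CPM rose from between 49.4 and 66.1 to between 384.9 and 426.5 for cholangiocyte markers, from between 277.7 and 426 to between 659.1 and 789.2 for stellate cell and fibroblast markers, and from between 215.6 and 379.5 to between 528.2 and 572.8 for macrophage markers. All 14 tested cholangiocyte markers were higher, as were 10 of 14 stellate cell and fibroblast, 9 of 13 macrophage, 5 of 8 lymphocyte and neutrophil and 2 of 2 mesothelial markers, with 0 lower. Over all tested genes 20.9% passed as higher and 16.3% as lower (edgeR adjusted p under 0.05). Of 14 endothelial markers 3 rose and 3 fell, and of 15 hepatocyte markers 11 fell and 0 rose. Under total counts 9 endothelial markers rose and 1 fell, and 6 hepatocyte markers fell and 2 rose. With that scaling 47.1% of all tested genes passed as higher and 2.62% as lower. Without labelled WT replicate 2 or labelled knockout replicate 1, the higher endothelial markers numbered 1, and without labelled WT replicate 1 or 3 or labelled knockout replicate 3 so did the higher mesothelial markers. In bulk liver, fewer cells of a type and less RNA per cell cannot be told apart.

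Promoter sequence is shown for 3 genes that stand for the patterns described here: Fgf21, whose level differed most between libraries of 1 group, Fgfr3, which was higher in the labelled knockout libraries, and Klb, which was lower. The sequences are RefSeq's (GRCm38.p6), read 5′ to 3′ on the gene's strand. Each begins 250 bases before the RefSeq start and ends before the first annotated exon of the gene. The windows are chr7:45615491-45615740 (minus strand) for Fgf21, chr5:33721474-33721673 (plus strand) for Fgfr3 and chr5:65348161-65348313 (plus strand) for Klb. The Fgfr3 window overlaps an exon of an annotated transcript on the opposite strand. Capitals mark matches on either strand. The motifs searched were the TATA box as TATAAA, the promoter element known as the GC box as GGGCGG, the box bound by the factor NF-Y as CCAAT, the half-site of nuclear receptors as AGGTCA, the half-site of the hepatocyte factor HNF1 as GTTAAT, the E-box of basic helix-loop-helix factors as CACGTG, and a core bound by C/EBP and ATF factors as TGATGNAA.
Fgf21: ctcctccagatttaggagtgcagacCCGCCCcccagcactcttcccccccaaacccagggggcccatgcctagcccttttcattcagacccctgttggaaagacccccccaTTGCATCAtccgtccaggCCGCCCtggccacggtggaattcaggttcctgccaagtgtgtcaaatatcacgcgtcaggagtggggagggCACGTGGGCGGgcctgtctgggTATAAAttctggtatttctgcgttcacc
Fgfr3: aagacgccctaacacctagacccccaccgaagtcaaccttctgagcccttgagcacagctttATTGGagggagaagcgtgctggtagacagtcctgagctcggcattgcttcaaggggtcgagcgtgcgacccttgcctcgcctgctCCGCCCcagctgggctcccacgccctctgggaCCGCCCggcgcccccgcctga
Klb: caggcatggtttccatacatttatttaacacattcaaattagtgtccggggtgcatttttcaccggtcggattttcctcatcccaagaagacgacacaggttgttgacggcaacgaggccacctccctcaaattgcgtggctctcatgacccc

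The Fgf21 window held 1 TATA box 23 bases before the start, 3 GC boxes, 1 E-box that overlaps a GC box by 1 base, and 1 match to the C/EBP and ATF core. In windows of the same length and position, the TATA box is found in 12.4% of the 32851 RefSeq promoters of this length, the GC box in 32.7%, the E-box in 6.02% and the C/EBP and ATF core in 3.45%. The Fgfr3 window was GC-rich (65.0%) and held 2 GC boxes (in 24.6% of promoters) and 1 CCAAT box (28.4%), with no TATA box. No motif searched matched the Klb window, which was 49.0% GC. The Fgfr3 window ended 51 bases and the Klb window 98 bases before the RefSeq start. A TATA box as near the start as that of Fgf21 could not have been found in them. A match describes letters and does not show a bound site.

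Of the 7 genes, Fgfr1 and Fgfr3 were higher and Fgfr4, Klb and Fgf1 lower in the labelled knockout libraries, while Fgfr2 and Fgf21 did not pass (edgeR quasi-likelihood test, Benjamini-Hochberg adjusted p under 0.05 over 12612 tested genes). Among all tested genes 37.1% passed, 20.9% as higher and 16.3% as lower, so a count of 5 in 7 is read against a table in which many genes changed. The groups did not overlap for those 5 genes, as for 51.3% of tested genes. The calls of Fgfr1, Fgfr3, Klb and Fgf1 held in each of the 16 other settings fitted across all genes, and that of Fgfr4 did not. The plot of levels by library shows each value.

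**Figure D1:**
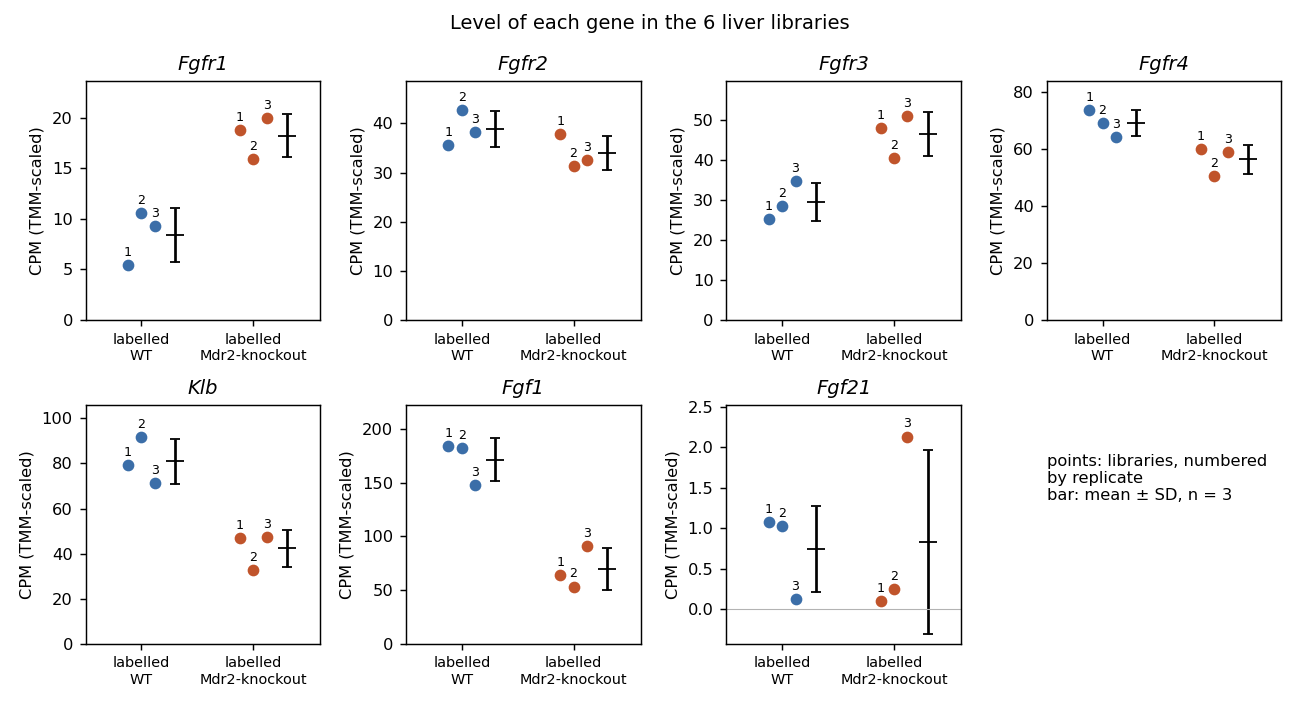
Level of each of the 7 genes in CPM (TMM-scaled, linear axes) in the 3 libraries labelled WT and the 3 labelled Mdr2 knockout; points are libraries numbered by replicate, and the bar beside them is the mean ± SD. The groups are apart for Fgfr1, Fgfr3, Fgfr4, Klb and Fgf1 and overlap for Fgfr2 and Fgf21.

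Fgfr1, the receptor best known from mesenchymal and endothelial cells and the partner of beta-Klotho in FGF21 signalling in fat, showed the largest rise. It stood at 5.404, 10.5 and 9.34 CPM in labelled WT replicates 1, 2 and 3, and at 18.8, 15.9 and 20.0 CPM in labelled knockout replicates 1, 2 and 3. Every labelled knockout library lay above every labelled WT library, and labelled WT replicate 1 was the lowest of all. The log2 fold change was 1.11 (SE 0.22, 95% interval 0.61 to 1.62, edgeR adjusted p = 0.00576), a 2.16-fold higher level. The raw counts were 85, 165 and 148 against 379, 316 and 385. Fgfr1 lies on chromosome 8 from 25518759 to 25575718 (GRCm38), and exons of the predicted antisense gene Gm16159 overlap its own, so reads of the pair cannot be told apart where strand was not used. The stellate cell and fibroblast, duct, macrophage, lymphocyte and neutrophil, and mesothelial lists given above held higher markers and 0 lower ones. Of 14 endothelial markers 3 rose and 3 fell with TMM, and 9 rose and 1 fell under total counts. The part of these cell types in the rise of Fgfr1 was not tested.

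Fgfr3, a receptor found in epithelia as well as in cartilage, was higher by a smaller factor. Its levels were 25.3, 28.6 and 34.8 CPM in the labelled WT and 48.2, 40.6 and 51.1 CPM in the labelled knockout libraries. The lowest labelled knockout library, replicate 2, was above the highest labelled WT library, replicate 3. On the log2 scale the difference was 0.66 (SE 0.13, 95% interval 0.37 to 0.94, edgeR adjusted p = 0.00416), or 1.58-fold. Fgfr3 lies on chromosome 5 from 33721724 to 33737068, and exons of the antisense gene G630022F23Rik overlap its own.

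Fgfr4, the receptor of hepatocytes that FGF15 acts on, stood at 73.6, 69.2 and 64.4 CPM in the labelled WT and 59.9, 50.6 and 58.8 CPM in the labelled knockout libraries. The groups were apart, by a small margin. The log2 fold change of -0.29 (SE 0.08, 95% interval -0.48 to -0.10, edgeR adjusted p = 0.0210) depended on the scaling. With total counts it was 0.00 (edgeR adjusted p = 0.988), and the deposited FPKM (fragments per kilobase of transcript, scaled to library size) were 18.6 ± 1.47 and 18.6 ± 1.80 (SD, n = 3 each). Over all tested genes the median was 0.01 with TMM and 0.30 with total counts, a shift as large as the difference in Fgfr4. With total counts 47.1% of tested genes passed as higher and 2.62% as lower, and among the 7 genes Fgfr1 and Fgfr3 passed as higher and Klb and Fgf1 as lower. Fgfr4 lies on chromosome 13 from 55152818 to 55168759 and overlaps no other gene in RefSeq.

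Fgfr2, whose IIIb and IIIc splice forms serve epithelial and mesenchymal cells, did not pass. Its levels were 35.7, 42.8 and 38.2 CPM in the labelled WT and 37.9, 31.4 and 32.5 CPM in the labelled knockout libraries. The groups overlapped, since labelled knockout replicate 1 lay above labelled WT replicate 1. Its log2 difference was -0.20 (SE 0.10, 95% interval -0.41 to 0.02, edgeR adjusted p = 0.131), and 0.10 with total counts (edgeR adjusted p = 0.407). Without labelled knockout replicate 1 it passed (-0.29, edgeR adjusted p = 0.0494). Gene-level counts do not separate the splice forms.

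Within a library the makeup of the receptor transcripts can be compared free of library scaling. Of the summed FPKM of the receptors, Fgfr4 took 62.2%, 55.7% and 53.5% in the labelled WT and 45.4%, 45.6% and 45.1% in the labelled knockout libraries. The share of Fgfr3 was 15.8%, 17.1% and 21.4% against 27.1%, 27.1% and 29.0%. Fgfr1 took 3.05%, 5.66% and 5.18% against 9.52%, 9.57% and 10.2%, and Fgfr2 18.9%, 21.6% and 19.9% against 18.0%, 17.8% and 15.7%. For each of the 4 receptors the groups did not overlap, with p = 0.1 in an exact two-sided permutation test over libraries, the smallest value that 3 against 3 allows (0.1 after adjustment over the 4 shares). The shares of a library add up to the whole, so they are not separate results. Summed receptor FPKM averaged 32.6 in the labelled WT and 41.05 in the labelled knockout libraries. Fgfr4 averaged 18.6 FPKM in both groups, and Fgfr2 6.56 and 7.03 FPKM. Their smaller shares therefore do not show lower levels on the FPKM scale. With TMM Fgfr4 was at -0.29 and Fgfr2 at -0.20 on the log2 scale, as given above. The size of each share rests on the gene lengths behind the deposited FPKM. The labelled knockout libraries were close to each other in their Fgfr4 share (SD 0.268 percentage points against 4.54 in the labelled WT). The plot of receptor makeup shows the smaller Fgfr4 share beside the larger Fgfr3 and Fgfr1 shares.

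**Figure D2:**
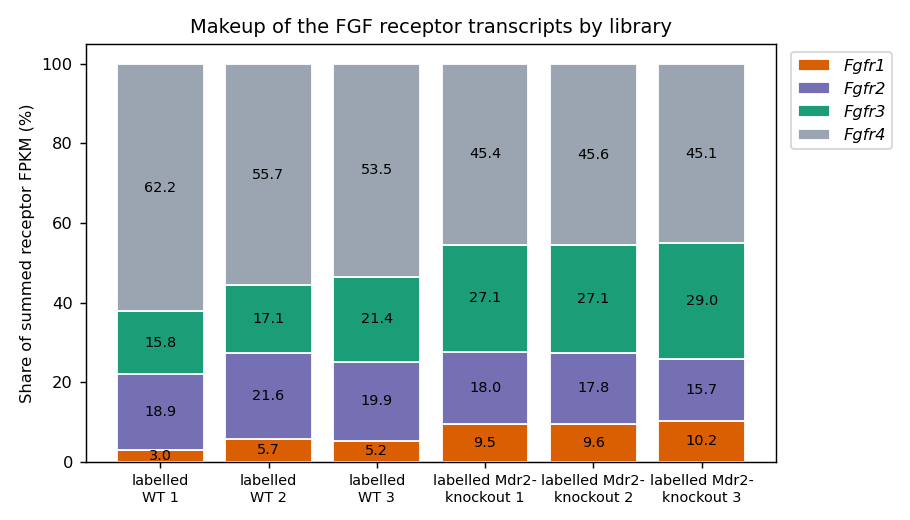
Share of the summed FPKM of the FGF receptors (%, stacked to 100) taken by each receptor in each of the 6 libraries; numbers in the bars are the shares. The share of Fgfr4 lies between 53.5% and 62.2% in the labelled WT and between 45.1% and 45.6% in the labelled Mdr2 knockout libraries. Fgfr3 and Fgfr1 take larger shares in the latter.

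Klb, the co-receptor that gives FGF15 and FGF21 their hold on hepatocytes, was lower. Its levels were 79.3, 91.8 and 71.6 CPM in the labelled WT and 46.9, 32.8 and 47.4 CPM in the labelled knockout libraries. No labelled knockout library reached the lowest labelled WT library. This was a log2 difference of -0.93 (SE 0.16, 95% interval -1.31 to -0.56, edgeR adjusted p = 0.00400), to 0.524 of the labelled WT level. It was -0.64 with total counts (edgeR adjusted p = 0.0126). Klb lies on chromosome 5 from 65348411 to 65386957, away from other RefSeq genes.

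Klb was also lower relative to its receptor gene Fgfr4. Klb FPKM were 56.6%, 69.6% and 58.3% of those of Fgfr4 in the labelled WT libraries and 41.0%, 34.05% and 42.4% in the labelled knockout libraries. The log2 ratio of Klb to Fgfr4 differed by -0.65, that of Fgfr1 to Fgfr4 by 1.46 and that of Fgfr3 to Fgfr4 by 0.96, each without overlap between groups (exact permutation p = 0.1 each, 0.133 after adjustment over 4 ratios). The ratio of Fgfr2 to Fgfr4 differed by 0.10 (exact permutation p = 0.5). These ratios do not depend on library scaling, but the percentages rest on the gene lengths behind the deposited FPKM. With the annotated exon lengths of GENCODE, mean Klb and Fgfr4 were 16.05 and 17.62 in the labelled WT libraries. In the labelled knockout libraries they were 10.32 and 17.64. The log2 differences between groups do not depend on these lengths. When counts were instead divided by the summed hepatocyte markers of the same library, a choice made after seeing the data, Klb differed by -0.31 on the log2 scale and the groups overlapped (exact permutation p = 0.3). On that scale Fgf1 differed by -0.70, Fgfr4 by 0.34, Fgfr2 by 0.44, Fgfr3 by 1.30 and Fgfr1 by 1.80. Each was without overlap (exact permutation p = 0.1 each, 0.14 after adjustment over the 7 genes). The marker sum itself was lower in the labelled knockout libraries, which moves every gene upward on this scale compared with TMM. The share of all genes without overlap on it was not computed. So the direction of Fgfr4 and Fgfr2 turned with the reference, and the sizes of the others moved while their directions did not.

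**Figure D3:**
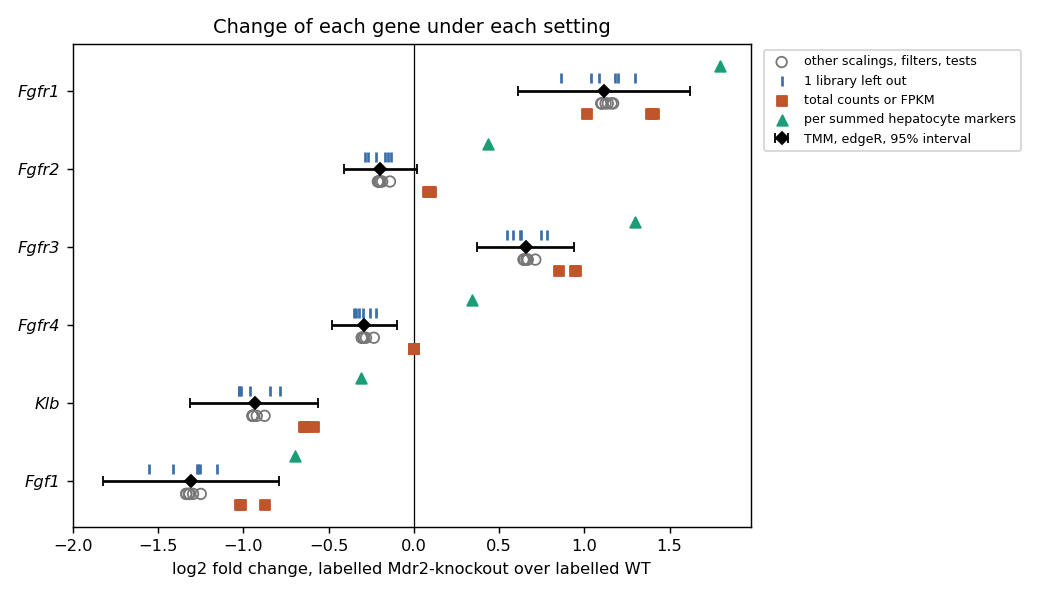
The log2 fold change (labelled Mdr2 knockout over labelled WT, x axis) of 6 of the genes under each setting; diamonds with bars are the TMM estimate with its 95% interval, circles other scalings, filters and tests, ticks fits without 1 library, squares total counts or FPKM, and triangles counts per summed hepatocyte markers. Fgfr1 and Fgfr3 stay above 0 and Klb and Fgf1 below 0 throughout, while Fgfr4 and Fgfr2 sit on either side of it.

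Fgf1, a ligand that binds all FGF receptors and lacks a signal peptide, was the gene with the largest fall. It stood at 183.9, 182.2 and 148.2 CPM in the labelled WT and 63.9, 53.3 and 90.9 CPM in the labelled knockout libraries. The highest labelled knockout library, replicate 3, was still well below the lowest labelled WT library, replicate 3. On the log2 scale this came to -1.31 (SE 0.21, 95% interval -1.82 to -0.79, edgeR adjusted p = 0.00498), to 0.405 of the labelled WT level. Fgf1 lies on chromosome 18 from 38838672 to 38929470, and its span overlaps that of Arhgap26 and of the predicted gene Gm5820. Of all pairs among the 7 genes other than Fgfr2 with Fgfr4, Klb and Fgf1 had the most alike profiles over the 6 libraries, at a root-mean-square difference of centred log2 CPM of 0.250.

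Fgf21 was near the limit of detection and varied between libraries of 1 group. It had 17, 16 and 2 counts in labelled WT replicates 1, 2 and 3 and 2, 5 and 41 counts in labelled knockout replicates 1, 2 and 3. Labelled knockout replicate 3 was the highest of the 6 libraries, and the other libraries of its group were among the lowest. The log2 fold change of 0.14 had a 95% interval of -2.78 to 3.05 (edgeR adjusted p = 0.941), which a difference of 4-fold in either direction lies within. Its sign turned in 5 settings, and without labelled knockout replicate 3 the value was -2.04 (edgeR adjusted p = 0.105). Fgf21 lies on chromosome 7 from 45613890 to 45615490.

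Levels of different genes were compared per length, on the deposited FPKM. In the labelled WT libraries the order was Fgfr4 (18.6), Klb (11.4), Fgf1 (7.998), Fgfr2 (6.56), Fgfr3 (5.89), Fgfr1 (1.51) and Fgf21 (0.710 FPKM). The library ranges of Fgf1 and Fgfr2, of Fgfr2 and Fgfr3, and of Fgfr1 and Fgf21 overlapped. In the labelled knockout libraries it was Fgfr4 (18.6), Fgfr3 (11.4), Klb (7.34), Fgfr2 (7.03), Fgfr1 (4.02), Fgf1 (3.97) and Fgf21 (0.968 FPKM), with overlap between Klb and Fgfr2 and between Fgfr1 and Fgf1. These orders rest on the gene lengths behind the deposited FPKM, several of which differ from the annotated exons in GENCODE. The lengths were 19363 against 5463 bases for Fgf1, 6393 against 4549 for Klb, 4529 against 7158 for Fgfr3, 5346 against 10328 for Fgfr2 and 5025 against 9875 for Fgfr1. With GENCODE lengths Fgf1 stood first in the labelled WT (28.4) and second in the labelled knockout libraries (14.1). Fgfr3 then stood above Fgfr2 in the labelled WT libraries (3.73 against 3.40), and Klb above Fgfr3 in the labelled knockout libraries (10.3 against 7.21), the reverse of the deposited order in both cases. Fgfr4 stood above Klb and all other receptors with either set of lengths.

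The genes whose centred log2 CPM were nearest to each member over the 6 libraries were sought among 11621 genes (11622 for Fgf21) with a mean of at least 1 CPM. For Klb they were Adtrp, Igfals and Ugt3a1 (root-mean-square difference 0.097 to 0.109), against a median of 0.529 over all candidates. Igfals, which encodes the acid-labile subunit that carries insulin-like growth factors in plasma, went from 147.4 to 77.0 CPM in the group means. For Fgf1 they were Acsl1, Bach2 and Mcm10 (0.116 to 0.151), where Acsl1 encodes an acyl-CoA synthetase of fatty acid use. Among the genes nearest to Fgfr4 were the mitochondrial carrier gene Slc25a42 (0.025) and Pbld1 (0.032). Fgfr1 lay nearest to Apbb1, Slc8a1 and Mxra7 (0.092 to 0.098), Fgfr3 to Cyria, Ankrd42 and Vwf (0.034 to 0.073) and Fgfr2 to Cox14, Arap1 and Ift52 (0.032 to 0.039). The nearest to Fgf21, Entpd4b, was as far as 0.707. A small distance reflects mainly a like difference between the groups.

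Other FGF ligands were hardly present. Of 16 listed genes 9 were in the table, 0 passed the low-count filter and Fgf15, the intestinal ligand of FGFR4, had 0 counts in each library, which allows up to 0.192 CPM. Fgf2 had 1, 0 and 0 counts in the labelled WT and 6, 3 and 4 in the labelled knockout libraries, a ratio of 10.4 with an exact 95% counting interval of 1.56 to 440. Fgf7, a mesenchymal ligand of the epithelial FGFR2 form, had 1, 0 and 0 counts against 2, 8 and 5, a ratio of 11.96 (1.84 to 503). Such intervals cover counting error only. Fgf9 had 1 count against 6 over the group, Fgf18 2 against 6, Fgf17 1 against 3, Fgf10 0 against 2, Fgf23 0 against 1 and Fgf16 1 against 0. Fgf11, which stays inside the cell and binds no FGF receptor, was at 58 counts against 76 and missed the threshold (0.06 on the log2 scale, edgeR adjusted p = 0.916).

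Among co-receptors and binding partners, 3 of 5 tested genes rose and 0 fell, beside 20.9% higher and 16.3% lower over all tested genes. The median log2 fold change was 0.27 against 0.01 over all tested genes. Flrt2 and Flrt3 encode transmembrane proteins that bind FGF receptors. Flrt2, at 0.339 ± 0.160 CPM in the labelled WT, rose to 1.54 ± 0.258 CPM (2.16 on the log2 scale, edgeR adjusted p = 0.00236), and Flrt3 from 2 counts over the labelled WT to 41 over the labelled knockout libraries, a ratio of 16.3 (4.24 to 139.5). Glg1, which encodes a Golgi protein that binds FGFs, rose from 71.2 ± 1.74 to 86.1 ± 2.61 CPM (0.27, edgeR adjusted p = 0.00705). The decoy receptor gene Fgfrl1 was at -0.19 (edgeR adjusted p = 0.0766). Kl, the Klotho gene that serves FGF23, had 0 counts in each library, and Lctl 1 count in all.

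Of 21 tested heparan sulphate genes 4 were higher and 6 lower (median -0.03), beside 20.9% higher and 16.3% lower over all tested genes. Under total counts these numbers were 9 and 3, beside 47.1% higher and 2.62% lower over all tested genes. The core protein genes Sdc4, at 525 ± 29.2 and 279.6 ± 26.2 CPM (log2 fold change -0.91), and Gpc1, at 9.81 ± 2.61 and 3.65 ± 0.406 CPM (-1.43), were lower. Sulf1, an enzyme that removes sulphate groups FGFs bind to, rose from 0.466 ± 0.0757 to 2.56 ± 0.638 CPM (2.44), and Hs3st1, a sulphotransferase, by 2.44 as well. All 4 passed with total counts too. Hs3st1 was a low gene, which the filter at 1 CPM in 3 libraries left out. In the limma fit of log2(FPKM + 1) the difference was 0.475 for Hs3st1 and 0.427 for Sulf1. Adaptors and kinases below the receptors had 4 of 22 higher and 6 lower (median -0.11), beside the same shares over all genes, and 8 and 1 with total counts. The number lower was 2 without labelled WT replicate 2, labelled knockout replicate 1 or labelled knockout replicate 2, 3 without labelled WT replicate 1, and 2 with upper-quartile factors. The largest changes that passed were Gab2 (0.91), a docking protein, and Shb (-0.81), an adaptor, while the kinase gene Map2k2 fell by 0.57 on the log2 scale. Gab2 missed the threshold without labelled WT replicate 2 (0.84, edgeR adjusted p = 0.0629).

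**Figure D4:**
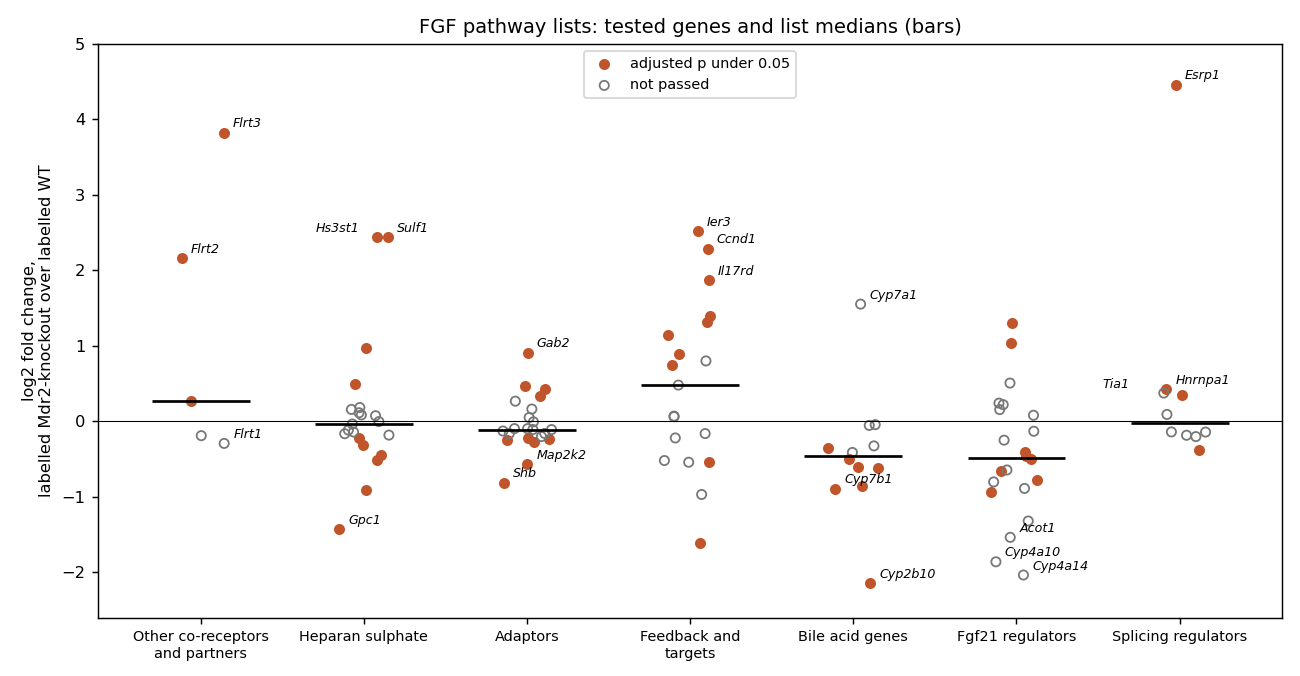
The log2 fold change (labelled Mdr2 knockout over labelled WT, y axis) of the tested genes in 7 lists of FGF pathway and related genes; filled points passed an edgeR adjusted p of 0.05, open points did not, and bars are list medians. Feedback and target genes have the highest median (0.48), and the bile acid genes (-0.45) and Fgf21 regulators (-0.48) the lowest. The list marked bile acid genes also holds Cyp2b10, a drug-metabolising gene.

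Of 19 tested feedback inhibitors and targets of FGF and ERK signalling, which other growth factors also induce, 8 rose and 2 fell (median 0.48). Over all tested genes 20.9% passed as higher and 16.3% as lower. Under total counts, where 47.1% and 2.62% of all tested genes passed, 10 of the list rose and 0 fell. Without labelled WT replicate 2 or labelled knockout replicate 1 the count of higher genes was 4, and without labelled knockout replicate 2 it was 5. Ccnd1, the cyclin D1 gene, rose, with means of 5.16 ± 0.996 and 25.2 ± 1.36 CPM (2.29 on the log2 scale, edgeR adjusted p = 2.66e-06), Il17rd, a membrane inhibitor of FGF receptors, from 0.550 ± 0.0739 to 2.03 ± 0.345 CPM (1.87) and Ier3 from 0.318 ± 0.230 to 1.86 ± 0.271 CPM (2.52). The Sprouty genes, inhibitors induced by receptor tyrosine kinases, went different ways. Spry1 rose from 4.61 ± 0.338 to 7.73 ± 1.27 CPM (0.74, edgeR adjusted p = 0.00628) and Spry2 from 0.529 ± 0.0336 to 1.33 ± 0.526 CPM (1.32, edgeR adjusted p = 0.0280). Spry4, the highest of them in CPM in the labelled WT libraries, fell from 15.0 ± 6.12 to 4.93 ± 2.36 CPM (-1.61, edgeR adjusted p = 0.0359).

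The ERK phosphatase gene Dusp6 and the factor gene Etv5, are both often used as readouts of FGF signalling. Dusp6 stood at 54.4, 45.4 and 54.0 CPM in the labelled WT and 37.1, 26.5 and 42.8 CPM in the labelled knockout libraries, a difference of -0.53 on the log2 scale just inside the threshold (edgeR adjusted p = 0.0499). Etv5 stood at 6.17, 5.43 and 7.38 CPM against 4.07, 5.39 and 3.59 CPM, with -0.54 just outside it (edgeR adjusted p = 0.0540). Neither group pair overlapped, as for 51.3% of all tested genes, and for Etv5 the nearest libraries were at 5.43 and 5.39 CPM. Dusp6 did not pass with total counts (-0.24, edgeR adjusted p = 0.309). It kept its call in 6 of the other settings and lost it in 10. The calls of Spry2, Spry4, Dusp6 and Etv1 (1.39) each were lost without 1 or more single libraries. Etv4 had 7 and 14 counts over the groups and was not tested.

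Of the listed bile acid and related genes tied to FGFR4 and beta-Klotho, 7 of 12 tested were lower and 0 higher (median -0.45). Over all tested genes 16.3% passed as lower and 20.9% as higher. With total counts, where 2.62% and 47.1% of all tested genes passed, 4 of the list were lower and 1 higher. Cyp7a1, which this receptor pair holds down, was at 39.5, 73.6 and 58.0 CPM in the labelled WT and at 276.1, 126.1 and 100.0 CPM in the labelled knockout libraries. Each labelled knockout library lay above each labelled WT library, with replicate 1 far above the others of its group. The difference of 1.55 on the log2 scale (SE 0.52) missed the threshold (edgeR adjusted p = 0.0809) and passed with DESeq2 (1.54, adjusted p = 0.0150), limma-voom (1.45, adjusted p = 0.0133) and total counts (1.85, edgeR adjusted p = 0.0420). Cyp8b1, the sterol 12-hydroxylase gene, was at 400.1 ± 18.9 and 385.9 ± 77.4 CPM (-0.05, edgeR adjusted p = 0.779). Nr0b2, a repressor gene that bile acids induce in hepatocytes, was at 56.3 ± 16.4 and 42.4 ± 10.1 CPM (-0.41, edgeR adjusted p = 0.320). Lower genes included Cyp7b1 (-0.89), an enzyme of the alternative bile acid pathway, and Slc10a1 (-0.85), the bile acid uptake carrier. Also lower was Cyp2b10 (-2.14), a drug-metabolising enzyme that the list also holds. The Cyp2b10 call was lost without labelled WT replicate 1, 2 or 3 or labelled knockout replicate 3 (edgeR adjusted p = 0.0509, 0.0652, 0.0692 and 0.0721), and its value ranged from -3.05 to -1.78 with single libraries left out. Hepatocyte markers as a whole moved the same way as these genes, and their part was not tested.

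Of 22 tested genes that induce Fgf21 or are induced beside it, 6 fell and 2 rose (median -0.48). Over all tested genes 16.3% passed as lower and 20.9% as higher. Under total counts, where 2.62% and 47.1% of all tested genes passed, 1 of the list fell and 4 rose. The number that fell was 2 without labelled WT replicate 2 or labelled knockout replicate 1, 3 without labelled WT replicate 1 or labelled knockout replicate 2, and 3 with the replicate number as a block. The number that rose was 1 without labelled WT replicate 2 or labelled knockout replicate 1 or 3. Ppara, the gene of the fasting factor, fell from 269.7 ± 46.4 to 157.4 ± 38.2 CPM (-0.78, edgeR adjusted p = 0.0264), a call lost with total counts (-0.48, edgeR adjusted p = 0.101), with the replicate number as a block (edgeR adjusted p = 0.0713), and without labelled WT replicate 1 or 2 or labelled knockout replicate 1 (edgeR adjusted p = 0.0617, 0.0668 and 0.0848). Pdk4, a kinase gene of fasting, rose from 6.06 ± 1.604 to 14.9 ± 3.45 CPM (1.30, edgeR adjusted p = 0.00260).

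Some PPARalpha targets varied between libraries in an order that was in part like that of Fgf21. Cyp4a14, a fatty acid hydroxylase gene, stood at 1036, 380.5 and 81.7 CPM in labelled WT replicates 1, 2 and 3 and at 13.5, 8.91 and 343.6 CPM in labelled knockout replicates 1, 2 and 3. Cyp4a10 stood at 1089, 531.5 and 170.4 against 52.3, 35.6 and 406 CPM, and Acot1 at 35.6, 20.3 and 12.4 against 3.57, 4.33 and 15.8 CPM. The same 3 libraries, labelled WT replicates 1 and 2 and labelled knockout replicate 3, were the highest for each of these genes and for Fgf21. Their order differed, since Fgf21 was highest in labelled knockout replicate 3 and the 3 targets in labelled WT replicate 1. The order of the lower libraries differed as well. Cyp4a10 and Cyp4a14 belong to a family of close copies whose reads may have been split. The stress factor gene Atf4 moved little, from 81.5 to 96.7 CPM over all 6 libraries, and its target Asns was lowest in labelled WT replicate 1 (2.42 CPM). These genes were chosen after their values were seen, and the likeness, which rests on 6 libraries, was not tested.

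**Figure D5:**
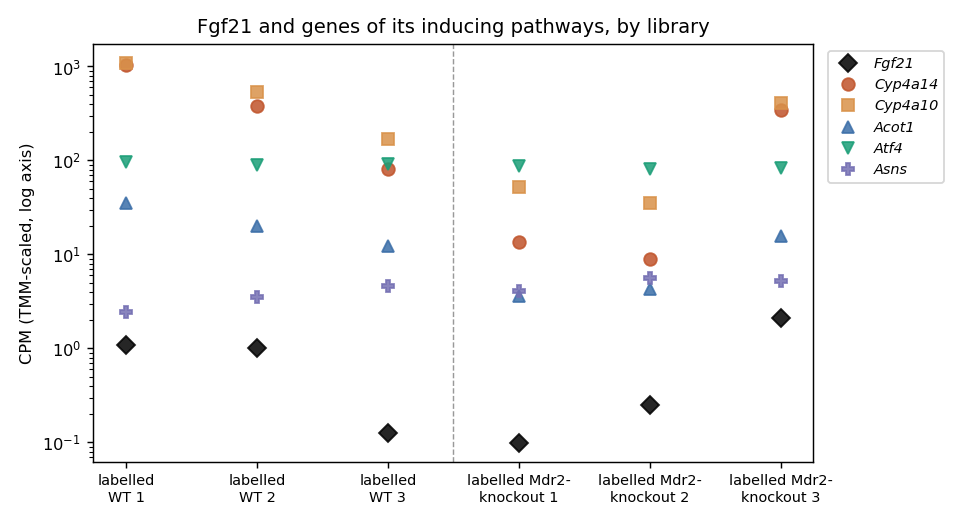
Level in CPM (TMM-scaled, log axis) of Fgf21, the PPARalpha targets Cyp4a14, Cyp4a10 and Acot1, and the stress genes Atf4 and Asns in each of the 6 libraries; the dashed line parts the groups. Fgf21 and the PPARalpha targets are highest in labelled WT replicates 1 and 2 and labelled Mdr2 knockout replicate 3, and Atf4 lies between 81.5 and 96.7 CPM.

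Of 10 tested splicing regulators, which include those that choose between receptor exons IIIb and IIIc, 3 rose and 1 fell (median -0.02). Over all tested genes 20.9% passed as higher and 16.3% as lower. Under total counts, where 47.1% and 2.62% of all tested genes passed, 5 of the list rose and 0 fell. Without labelled WT replicate 3 the number that fell was 3. Esrp1, which favours the epithelial IIIb form, had 2 counts in the labelled WT and 64 in the labelled knockout libraries, a ratio of 25.5 (6.78 to 215.1). Its paralog Esrp2, the abundant one in these livers, was at 130.8 ± 8.15 and 101 ± 2.83 CPM (-0.37, edgeR adjusted p = 0.00292), and at -0.08 with total counts (edgeR adjusted p = 0.413). The rise of Esrp1 stood beside that of the cholangiocyte markers and of other marker lists given above, and their part in it was not tested.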

How the data were processed

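RNA of 6 mouse liver samples was sequenced, 3 labelled WT and 3 labelled Mdr2 knockout. The authors deposited whole-number counts per gene symbol and FPKM for the same genes. The build mm10 and the tools SAMtools, StringTie, Bowtie2, DESeq, Cufflinks, HTSeq, HISAT2 and Trimmomatic are named per the submitters' processing notes. Their versions, roles, gene annotation and use of strand were not given in the sources used here. Deposited FPKM are scaled by library totals, so they repeat the counts under that scaling. Column letters M and N were read as Mdr2 knockout and, by elimination, WT; 0 columns were left without a sample.

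Counts were fitted with edgeR 4.0.16 in R 4.3.3 (filterByExpr, minimum count 10 and total 15; TMM; robust quasi-likelihood; group as only term), with Benjamini-Hochberg adjustment over 12612 genes. Log2 fold changes are labelled knockout over labelled WT. The pipeline was run on simulated data in which few genes changed, as many up as down. That run does not test the shift between scalings seen in these libraries. DESeq2 1.42.0, limma 3.58.1 (voom, and log2(FPKM + 0.1) or + 1), other scalings and filters, the replicate number as a block, and leaving out each library were the alternatives. Beside the members, named genes were drawn from sets fixed by rule, and not every gene of each set is named. The sets were ligands, co-receptors and splicing genes, the 8 smallest p per other list, and the 3 genes nearest to each member. Cyp7a1, Cyp8b1, Nr0b2, Esrp1, Esrp2, the Sprouty genes, Dusp6, Etv4, Etv5 and Abcb4 were also set by rule. Cyp4a10, Cyp4a14, Acot1, Atf4 and Asns were added after their values were seen. A further gene near Fgfr4 is not reported here. Members and lists were chosen with earlier results of these data known. Positions are from RefSeq and exons from GENCODE, both on GRCm38.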

Additional observations from a re-analysis of the deposited data

How the results depend on the processing

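Fgfr1, Fgfr3, Klb and Fgf1 kept direction and call in each of the 16 settings fitted across all genes. Per summed hepatocyte markers, with no test across genes, Fgfr1 was at 1.80, Fgfr3 at 1.30, Klb at -0.31 and Fgf1 at -0.70, while Fgfr2 (0.44) and Fgfr4 (0.34) turned. Fgfr4 lost its call with upper-quartile factors (-0.23, edgeR adjusted p = 0.0526), turned with total counts (0.0019) and was at -4e-04 and -3e-04 in limma fits of log2(FPKM + 0.1) and log2(FPKM + 1). Fgfr2 turned with total counts (0.10) and in those limma fits (0.0939 and 0.0833). Fgf21, which never passed, turned with limma-voom (-0.46), log2(FPKM + 0.1) (-0.0945) and the replicate block (-0.22), and the filter at 1 CPM in 3 libraries left it out. Leaving out single libraries, the log2 fold change ranged from -0.35 to -0.22 for Fgfr4 (edgeR adjusted p 0.0125 to 0.0723; lost without labelled WT replicate 1 or 2 or labelled knockout replicate 2), from -0.29 to -0.13 for Fgfr2, from -2.04 to 0.67 for Fgf21, from 0.86 to 1.30 for Fgfr1, from 0.55 to 0.78 for Fgfr3, from -1.03 to -0.78 for Klb and from -1.55 to -1.15 for Fgf1. The log2 ratio of Fgfr2 to Fgfr4 ranged from -0.0119 to 0.16, and the change in the Fgfr2 share was -4.72 percentage points on counts in place of FPKM. Of the other named genes, Fgfrl1 turned with total counts (0.10) and both limma fits on FPKM (0.10 and 0.0947), Atf4 likewise (0.16 each), and Cyp8b1 with total counts (0.24), those limma fits (0.22 each), upper-quartile factors (0.0059) and without labelled knockout replicate 3 (0.0498; leave-one-out range -0.23 to 0.0498). The cause of these shifts was not tested, beyond the shift of the median that the scalings share.

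The number of genes called ranged from 3541 to 4609 with single libraries left out and was 4685 with all. Calls were 56.2% higher with TMM and 94.7% higher with total counts. It is not stated whether replicate numbers in the titles pair the libraries. Deviations of same-numbered libraries correlated at 0.084, 0.045 and -0.076, and those of differently numbered libraries at -0.117 to 0.069. With 3 libraries per group such correlations cannot show whether libraries were paired. With the replicate block 4568 genes passed, and 2 members were higher and 3 lower as without it.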
